A study of Homo sapiens with 2 samples.

Results

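SMAD proteins carry the signal of the TGF-β superfamily from receptors at the cell surface to genes in the nucleus. The 8 human SMAD genes, SMAD1, SMAD2, SMAD3, SMAD4, SMAD5, SMAD6, SMAD7 and SMAD9, were taken by their symbols from 58174 genes, and each was listed once in both libraries. The study introduced GDF1, a secreted ligand of this superfamily, into PLC-8024, a human hepatocellular carcinoma (HCC) cell line, and compared the cells with controls. The 2 groups were PLC-8024-CTR, with the genotype label Control, and PLC-8024-GDF1, with the label GDF1-overexpression, and each had 1 RNA-seq library. Per the methods, GDF1 was delivered by lentivirus and stably transduced cells were selected with puromycin. The promoter that drove GDF1, and whether the cells were a clone or a pool, are not given in the sources used here.

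Receptor-regulated SMADs are phosphorylated by type I receptors. SMAD2 and SMAD3 serve the activin, Nodal and TGF-β branch, to which GDF1 signals, and SMAD1, SMAD5 and SMAD9 serve the bone morphogenetic protein (BMP) branch. The phosphorylated proteins join SMAD4, the common partner of both branches, and enter the nucleus. SMAD6 and SMAD7 are the inhibitory SMADs, which block receptors or compete for partners, and both are commonly induced by the pathway that they restrain. Phosphorylation, protein level and location are not measured by RNA-seq.

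Whether a SMAD is receptor-regulated can be read from the end of its coding sequence. The branch cannot, as the last codons encode the same residues in SMAD3 as in SMAD1, SMAD5 and SMAD9. The last 30 coding bases of the canonical transcript of each gene (GENCODE, GRCh37) are shown 5′ to 3′, with the 4 codons before the stop codon in capitals. In the receptor-regulated genes these codons encode the serine-rich tail that type I receptors phosphorylate, which SMAD4 and the inhibitory SMADs lack.
SMAD2: ccttcagtgcgttgcTCAAGCATGTCAtaa
SMAD3: ccaagcatccgctgtTCCAGTGTGTCTtag
SMAD1: cctcataatcctattTCATCTGTATCTtaa
SMAD5: cctctgaaccccataTCTTCTGTTTCAtaa
SMAD9: ccacataaccccattTCTTCAGTGTCTtaa
SMAD4: ccgattgcagacccaCAACCTTTAGACtga
SMAD6: ctggagatcctcctcAACAACCCCAGAtag
SMAD7: tggctagaggtcatcTTCAACAGCCGGtag

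Over the whole coding sequence, the closest pairs were SMAD1 and SMAD5, with 77.4% identical bases among aligned bases, and SMAD2 and SMAD3, with 75.6%. The inhibitory pair SMAD6 and SMAD7 shared 69.8%. The longest run of identical bases in any aligned pair was 23, and no 100-base window of the longest transcript of SMAD1, SMAD3, SMAD5, SMAD6, SMAD7 or SMAD9 occurred in an annotated transcript of another gene. In SMAD4 7.01% of these windows also occurred in ENSG00000267699, a protein-coding gene on the same strand listed at 0.0001 TPM, the value that stands for 0, in both libraries. In SMAD2 the share was 0.119%.

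All values are TPM, transcript abundances that the authors scaled by gene length and library total, so that levels of different genes can be set side by side within a library. Sequencing depth cannot be read from TPM, and in bulk RNA fewer expressing cells and less RNA per cell cannot be told apart. The GDF1 gene itself reached 4.64 TPM in PLC-8024-GDF1 (log2 change 0.87), and CERS1, which shares a bicistronic transcript with it, was at 13.3 TPM in control cells and at 9612 TPM in PLC-8024-GDF1. Of 8 hepatocyte and liver epithelial markers, 8 and 7 reached 1 TPM, and TTR was the exception in PLC-8024-GDF1 at 0.34 TPM. Of the 4 leukocyte markers only CD68 (33.1 and 13.2 TPM) and of the 3 endothelial markers only PECAM1 (23.2 and 22.2 TPM) reached 1 TPM, while PTPRC and VWF were at 0.0001 TPM in both libraries. None of the 4 stellate cell and fibroblast markers reached 1 TPM in either library.

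Of the 8 SMAD genes, 7 had lower TPM in PLC-8024-GDF1 than in PLC-8024-CTR, and SMAD9, which was under 1 TPM in both libraries, had higher. Lower TPM as such was not particular to SMAD genes. Over all 14929 genes that reached 1 TPM in either library, the median log2 ratio of plain TPM was -0.24, so most were lower. SMAD3 and SMAD6 were the only members above 5 TPM, and SMAD6 was listed at nearly the same level in both libraries. SMAD2 and SMAD7, which stood between 3 and 4 TPM in control cells, were under 1 TPM in PLC-8024-GDF1. For each gene the log2 change compared TPM + 1 in PLC-8024-GDF1 with TPM + 1 in control cells. The pseudocount of 1 makes changes of low genes smaller, and "fell" or "rose" is used here only for a change past 2-fold on this scale. With 1 library per condition there was no replicate check, no spread and no test, and all differences describe these 2 libraries.

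**Figure D1:**
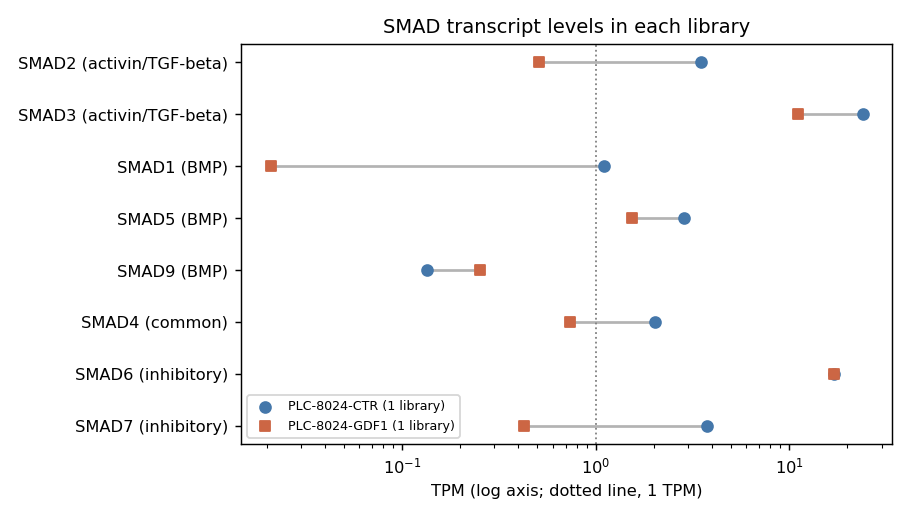
TPM of each SMAD gene (log axis) in the 1 PLC-8024-CTR library (circles) and the 1 PLC-8024-GDF1 library (squares), ordered by class. SMAD6 overlaps at 17.1 and 17.0 TPM, SMAD3 lies at 24.0 and 11.1 TPM, and SMAD1, SMAD2, SMAD4 and SMAD7 cross the dotted line at 1 TPM.

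SMAD3 is the receptor-regulated SMAD that binds DNA directly in the activin and TGF-β branch. It stood at 24.0 TPM in control cells against 11.1 TPM with GDF1, a log2 change of -1.04, just past 2-fold. The plain TPM was 2.16-fold lower. SMAD3 went from percentile 71.8 to percentile 60.4 of the genes tested, a rank that does not depend on how a library is scaled. After rescaling of TPM so that the typical gene did not change, its log2 change was -0.85, and with the GC trend removed it was -0.79, so the 2-fold limit was no longer passed.

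The SMAD3 gene (ENSG00000166949) lies on the plus strand of chromosome 15 of GRCh37, chr15:67356101-67487511. The 5′ end of its span overlaps an lncRNA on the opposite strand, ENSG00000259347 (AC087482.1 in the files), which was listed at 12.7 and 12.9 TPM. Whether counting used strand is not given, so reads of the overlap could belong to either gene. With the TPM of the lncRNA and of the other overlapping gene, ENSG00000259202 (0.0001 TPM in both), added to SMAD3, the log2 change was -0.59. The whole TPM of the lncRNA was added, though only a part of its span (chr15:67276441-67357606) lies within SMAD3. This sum therefore does not show what SMAD3 would be if reads of the overlap were reassigned.

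SMAD2, the partner of SMAD3 in this branch, stood at 3.52 TPM in control cells against 0.51 TPM with GDF1. Its log2 change was -1.58, and the plain TPM was 6.85-fold lower. The ratio of SMAD3 to SMAD2 was 6.83 in control cells and 21.7 in PLC-8024-GDF1, so SMAD2 was lower by a larger factor than SMAD3. This ratio within a library is free of library scaling, but one of its terms is under 1 TPM. SMAD2 (ENSG00000175387) lies on the minus strand at chr18:45335328-45457517, and its longest annotated transcript has 34626 bases, against 6464 in SMAD3. A TPM value depends on the length that is divided by, and the length used for SMAD2 is not given in the sources used here.

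Inside the SMAD2 span lies MTCO2P2, a pseudogene of a mitochondrial gene, at 4.47 and 4.81 TPM. The other 3 genes there, ENSG00000279707, RP11-380M21.4 and ENSG00000279366, were at 0.0001 TPM in both libraries. With the TPM of all 4 added, the SMAD2 change was -0.51. This adds TPM values that were divided by unlike lengths, as MTCO2P2 spans only chr18:45379604-45379828. The sum therefore does not show what SMAD2 would be if those reads were its own. The protein-coding genes nearest to SMAD2 by Euclidean distance over log2(TPM + 1) in the 2 libraries were NCOA7 (distance 0.067) and SLC22A8 (0.078), out of 11792. The nearest to SMAD3 were SRP54 (0.021) and CTBP2 (0.044). With only 2 libraries, such nearness says no more than that both levels were alike.

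The BMP branch was low in both libraries. SMAD5 was listed at 2.87 and 1.54 TPM, a log2 change of -0.61 that stayed within 2-fold, and it was the only BMP-branch SMAD above 1 TPM in PLC-8024-GDF1. SMAD1 was listed at 1.10 and 0.021 TPM. Its log2 change was -1.04, although the control level was barely above the minimum of 1 TPM and no fold is given for so low a value. SMAD9, also known as SMAD8, was listed at 0.13 and 0.25 TPM, with a log2 change of 0.14, and did not reach the minimum in either library.

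SMAD5 lies at chr5:135468534-135524435 and SMAD1 at chr4:146402346-146480328, both on the plus strand, and SMAD9 at chr13:37418968-37495024 on the minus strand. Antisense and intronic RNAs at these genes were low. SMAD5-AS1 was listed at 0.41 and 0.23 TPM, and SMAD1-AS1, SMAD1-AS2 and SMAD9-IT1 were at 0.0001 TPM in both libraries.

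SMAD4, without which neither branch forms its full nuclear complex, stood at 2.02 TPM in control cells against 0.74 TPM with GDF1. The log2 change was -0.80, within 2-fold on this scale, while the plain TPM was 2.74-fold lower. Which side of 2-fold SMAD4 lay on therefore depended on the pseudocount, and it was -1.34 with a pseudocount of 0.1 TPM. SMAD4 lies on the plus strand at chr18:48554898-48611415. The lncRNA ENSG00000289868 that overlaps it was not matched in the files.

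The inhibitory SMADs differed from each other. SMAD6, which mainly restrains BMP signalling, stood at 17.1 TPM in control cells against 17.0 TPM with GDF1, a log2 change of -0.01. The sign of so small a value turned to 0.19 with rescaled TPM and to 0.04 with the GC trend removed. SMAD7, which restrains both branches and recruits ubiquitin ligases to the receptors, was listed at 3.77 and 0.43 TPM. Its log2 change of -1.74 was the most negative of the members, and the plain TPM was 8.84-fold lower. With rescaled TPM the SMAD7 change was -1.68 and with the GC trend removed it was -1.64.

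SMAD6 lies on the plus strand at chr15:66994574-67075187, and the gap between its end and the start of SMAD3 is 280.9 kb. The lncRNA ENSG00000274995 inside SMAD6 was listed at 0.17 and 0.0001 TPM. SMAD7 lies on the minus strand at chr18:46446223-46477335, and no annotated gene overlaps it. The ratio of SMAD6 to SMAD7 was 4.55 in control cells and 39.9 in PLC-8024-GDF1, and that of SMAD7 to SMAD3 was 0.157 and 0.0382. In PLC-8024-GDF1 both ratios, like the fold of SMAD7, rest on a SMAD7 value of 0.43 TPM, which is under 1 TPM.

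The promoters of the inhibitory pair are shown because SMAD proteins bind a known palindrome, GTCTAGAC. The pair was picked after its levels had been seen to move apart, and the part of the palindrome in these levels was not tested. RefSeq windows on GRCh38.p14, from 250 bases before to 50 after each annotated start, were searched on both strands for GTCTAGAC and for GGCGCC, a GC-rich element, and the palindromes do not overlap each other. GTCTAGAC was found in 0.202% of 35116 windows and, among 19 windows of the SMAD genes, in 1, that of SMAD6, starting 12 bases before the annotated start (-12). GGCGCC was found in 19.2% of all windows and in 7 of the 19 SMAD windows, which belong to SMAD1, SMAD2, SMAD3, SMAD4 and SMAD5. The 250 bases before the start are given for SMAD6 (chr15:66701986-66702235, plus strand, GTCTAGAC in capitals) and for 1 of the 3 starts of SMAD7 (chr18:48950966-48951215, minus strand, neither element found).
SMAD6: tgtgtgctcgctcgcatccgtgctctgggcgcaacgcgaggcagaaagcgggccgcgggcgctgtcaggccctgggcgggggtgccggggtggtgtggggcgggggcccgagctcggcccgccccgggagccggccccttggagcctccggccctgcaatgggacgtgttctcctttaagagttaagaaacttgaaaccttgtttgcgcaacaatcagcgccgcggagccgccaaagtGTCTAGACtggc
SMAD7: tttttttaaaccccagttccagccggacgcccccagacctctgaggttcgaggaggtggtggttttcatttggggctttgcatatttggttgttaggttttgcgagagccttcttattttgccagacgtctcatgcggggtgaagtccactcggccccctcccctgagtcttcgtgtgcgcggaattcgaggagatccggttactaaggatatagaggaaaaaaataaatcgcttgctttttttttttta

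A match describes letters in a window and is no evidence of binding, and the lack of one in these windows of SMAD7 says nothing about other parts of the gene.

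Added up, the 8 SMAD genes made 54.6 TPM in control cells against 31.7 TPM with GDF1. The largest part of the difference was in SMAD3, with 12.9 TPM less (-12.9). SMAD2 and SMAD3 together made 50.5% of the summed SMAD TPM in control cells and 36.8% in PLC-8024-GDF1. SMAD6 and SMAD7 made 38.3% and 55.1%, of which SMAD6 alone made 31.4% and 53.7% and SMAD7 6.90% and 1.35%. The BMP class made 7.53% and 5.74%, and SMAD4 made 3.71% and 2.34%.

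The ratio of inhibitory to SMAD2 and SMAD3 transcripts was 0.759 in control cells and differed by 0.98 on the log2 scale in PLC-8024-GDF1, where it was above 1, so the order of the classes was reversed between the libraries. The ratio of SMAD2 and SMAD3 to SMAD4 was 13.6 and 15.8, and their ratio to the BMP class was 6.70 and 6.42. On the log2 scale the latter ratio differed by -0.06 between the libraries, which turned to 0.88 when class medians replaced sums. By single genes, the order of levels in PLC-8024-CTR was SMAD3, SMAD6, SMAD7, SMAD2, SMAD5, SMAD4, SMAD1 and SMAD9. In PLC-8024-GDF1 it was SMAD6, SMAD3, SMAD5, SMAD4, SMAD2, SMAD7, SMAD9 and SMAD1. Without replicates, no neighbours in either order can be said to differ.

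**Figure D2:**
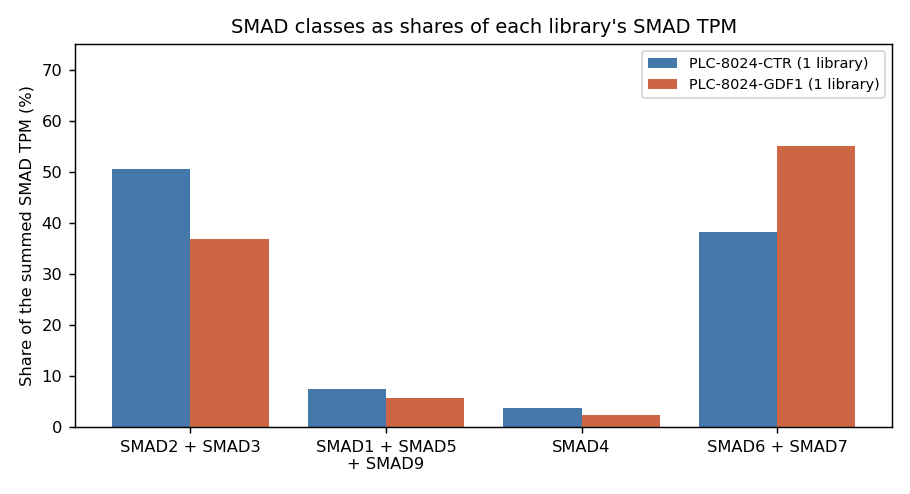
Share of the summed SMAD TPM (%) held by each SMAD class in the 1 PLC-8024-CTR and the 1 PLC-8024-GDF1 library. SMAD2 with SMAD3 makes 50.5% and 36.8%, and SMAD6 with SMAD7 makes 38.3% and 55.1%.

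Of the 7 SMAD genes that reached 1 TPM in either library, 4 fell (SMAD1, SMAD2, SMAD3 and SMAD7), 0 rose and 3 stayed within 2-fold. Over all 14929 genes that reached 1 TPM in either library, 9.61% fell and 4.82% rose. The median log2 change was -1.04 over the 7 SMAD genes and -0.20 over all genes. Of the 7, 4 (SMAD1, SMAD2, SMAD4 and SMAD7) reached 1 TPM only in PLC-8024-CTR. Over SMAD3, SMAD5 and SMAD6, which reached it in both libraries, the median was -0.61, against -0.18 over all 12867 such genes. That choice was made after the values were seen. Both SMAD1 and SMAD3 lay close to the limit, with changes of -1.04, whereas SMAD2 and SMAD7 were at -1.58 and -1.74. With the TPM of overlapping genes added whole, SMAD2 was at -0.51 and SMAD3 at -0.59, but such sums do not reassign reads. With the GC trend removed 2 of the 7 fell, SMAD2 and SMAD7, and with at least 5 TPM only SMAD3 and SMAD6 were left, of which 1 fell.

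Some markers of the line's own tissue were lower as well. Of the 8 hepatocyte and liver epithelial markers, 4 fell: ALB (-1.18), APOA1 (-1.93), TTR (-2.61) and HNF4A (-1.02). Of all genes tested, 9.61% fell and 4.82% rose. The keratins KRT8 (0.32) and KRT18 (0.28) had higher TPM in PLC-8024-GDF1. The summed level of the list was 8496 TPM in control cells against 6159 TPM with GDF1, and its part in the values of the SMAD genes was not tested.

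Low level touched most of these counts. There were 5 SMAD genes that had their higher TPM between 1 and 5, of which 3 fell and 0 rose, and in all genes of that level 7.42% fell and 4.70% rose. Of these 5 members, 4 were under 1 TPM in PLC-8024-GDF1. Of the 5297 genes at that level, 22.6% had at least 1 TPM only in PLC-8024-CTR and 14.2% only in PLC-8024-GDF1. The part of low level in the values of the SMAD genes was not tested. The 2 members between 10 and 30 TPM were SMAD3, which fell, and SMAD6, which did not. At that level 12.3% of 3375 genes fell and 4.83% rose.

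GC content moved with the log2 change across the whole data set. In 5 equal groups of 11792 protein-coding genes by GC content of the longest transcript, the median log2 change was -0.48 in the lowest group and 0.11 in the highest, and 14.0% and 4.87% of genes fell. SMAD5 (36.9% GC), SMAD1 (39.2%) and SMAD2 (40.3%) were in the lowest group, and SMAD4 (41.1%) and SMAD9 (43.2%) in the next, whose median was -0.41. SMAD3 (51.1%) was in the middle group, with a median of -0.28. SMAD7 (57.0%) and SMAD6 (58.9%) were both in the fourth group, where the median was -0.13 and 8.27% of genes fell. The inhibitory pair thus had similar GC content and different changes, while SMAD5 lay close to the median of its group. The part of GC content in the changes of the SMAD genes was not tested.

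**Figure D3:**
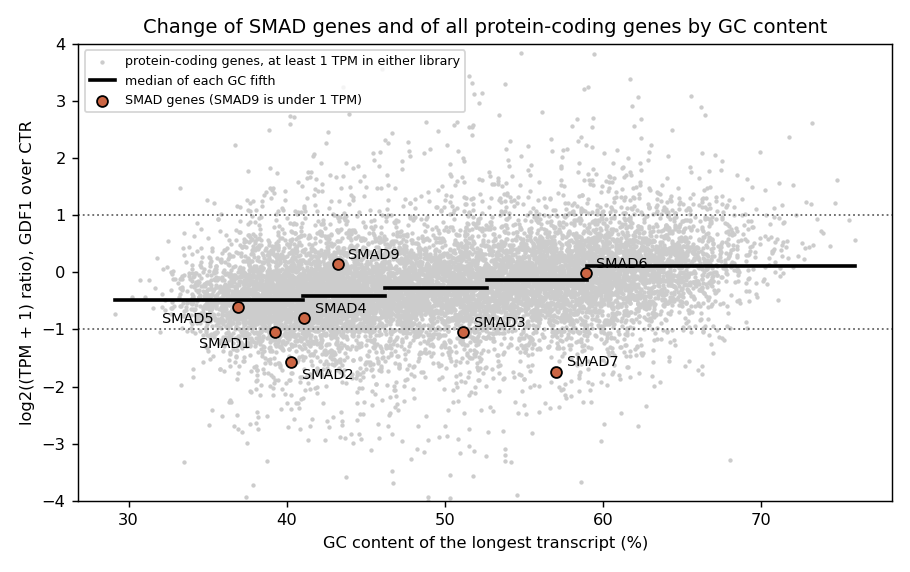
GC content of the longest transcript (%) against the log2 change for protein-coding genes that reached 1 TPM in either library (grey, 9 genes beyond 4 in either direction not drawn), the median of each of the 5 GC groups (black bars) and the 8 SMAD genes (orange). SMAD7 at -1.74 and SMAD6 at -0.01 stand at similar GC content.

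Several SMAD genes share a part of chromosome 18. SMAD2, SMAD7 and SMAD4 lie within 3.28 Mb, and 18 other genes in that span reached 1 TPM in either library. Of these 18, 2 fell (C18orf32, from 10.8 to 2.53 TPM, and the small nucleolar RNA SNORD58B, from 50.8 to 22.5 TPM) and 0 rose. The median log2 change of the 18 was -0.16, and of all genes tested 9.61% fell and 4.82% rose. The readthrough gene RPL17-C18orf32 had higher TPM (24.3 and 36.8), and how reads were shared between it and C18orf32 is not given. SNORD58B is a small RNA in a library of poly(A) RNA, so its value is of limited weight. CXXC1, between SMAD7 and SMAD4, was listed at 174.2 and 172.4 TPM. Of the genes within 2-fold, ME2 had lower TPM in PLC-8024-GDF1 (5.72 and 2.61, log2 change -0.90) and CTIF higher (4.86 and 9.54, 0.85). The number that fell was near the share of all genes. The part of chromosome position in the values of the 3 SMAD genes was not tested. The 18 neighbours were looked at after the SMAD values had been seen.

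The proteins that act on SMADs were then examined by lists. Over all 14929 genes that reached 1 TPM in either library, 9.61% fell and 4.82% rose. List counts near these shares are not particular to a list. Of 15 ubiquitin ligases and deubiquitinases that tag SMADs or their receptors, or remove the tag, 15 were tested, 1 fell and 0 rose, with a median log2 change of -0.49. With the GC trend removed the median was -0.083 and 0 fell, with rescaled TPM 0 fell, and with a pseudocount of 0.1 TPM 4 fell. The lowest changes were in UCHL5, a deubiquitinase partner of SMAD7, from 20.8 to 9.13 TPM (-1.11), and RNF111, which degrades SMAD corepressors, from 2.41 to 0.87 TPM (-0.87). The highest were in NEDD4L, a ligase for activated SMAD2 and SMAD3, from 35.4 to 52.1 TPM (0.55), and WWP2, from 9.54 to 13.9 TPM (0.50). SMURF1 was listed at 9.21 and 5.48 TPM (-0.66), and SMURF2 at 1.81 and 0.57 TPM (-0.84).

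Of 15 SMAD phosphatases, anchors and nuclear transport factors, 15 were tested, and 3 fell and 0 rose (all genes 9.61% and 4.82%). Their median was -0.61. With the GC trend removed the median was -0.16 and 1 fell, and with a pseudocount of 0.1 TPM 6 fell. Those that fell were CTDSP1, a small phosphatase of SMAD linkers, from 118.4 to 33.8 TPM (-1.78), ZFYVE16, an endosomal SMAD anchor, from 1.96 to 0.22 TPM (-1.28), and KPNB1, the nuclear import receptor importin β, from 56.2 to 24.2 TPM (-1.18). The highest changes were in STRAP, which aids SMAD7 at the receptor, from 56.2 to 61.1 TPM (0.12), and RANBP3, a SMAD export factor, from 59.7 to 51.6 TPM (-0.21). PPM1A, a phosphatase of the SMAD tail shown above, was listed at 3.77 and 2.44 TPM (-0.47).

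Of 17 nuclear partners, 11 were tested, and 1 fell and 0 rose (all genes 9.61% and 4.82%). Their median was -0.25, and 0 fell with rescaled TPM or the GC trend removed. TGIF1, a corepressor of SMAD2, fell from 94.8 to 42.0 TPM (-1.16), and EP300, a coactivator, was next lowest at 3.99 and 2.03 TPM (-0.72). The corepressor SKI was listed at 7.11 and 4.12 TPM (-0.67). Its relative SKIL, a feedback target of the same pathway, was listed at 3.29 and 3.98 TPM (0.21), and FOXH1, the DNA-binding partner of SMAD2 in Nodal signalling, at 2.67 and 3.66 TPM (0.35).

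Of 12 receptors, 7 were tested, and 2 fell and 1 rose (all genes 9.61% and 4.82%), with a median of -0.30. The median turned to 0.16 with the GC trend removed, and 1 receptor fell with the GC trend removed or with rescaled TPM. The type I activin receptor ACVR1B (ALK4) fell from 16.6 to 4.51 TPM (-1.67) and ACVR1 from 6.69 to 2.57 TPM (-1.11), while TGFBR2 rose from 1.44 to 6.94 TPM (1.70) and ACVR2B had the next highest change (0.05). TGFBR1 (ALK5) was listed at 2.47 and 1.40 TPM, a change of -0.53. ACVR1C (ALK7), a type I receptor for Nodal and related ligands, was listed at 0.0001 and 0.034 TPM, so its transcript was at or near 0 in both libraries. The study examined ALK7 protein in PLC-8024 cells by western blot and reports that its knockdown removed the gain in migration with GDF1. These RNA values do not show whether the protein was present.

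Genes that SMADs are known to regulate did not move one way. Of 17, 13 were tested, and 2 fell and 1 rose (all genes 9.61% and 4.82%). Their median of -0.07 turned to 0.13 with rescaled TPM and to 0.063 with the GC trend removed. CDKN2B, a cell cycle inhibitor induced by TGF-β, was among those that fell, from 3.30 to 1.02 TPM (-1.09). ATOH8, a BMP target, rose from 0.50 to 4.38 TPM (1.84), and ID3, another, had the next highest change, from 711.9 to 1335 TPM (0.91). SMAD6 and SMAD7 are feedback targets as well, and their own values are given above.

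**Figure D4:**
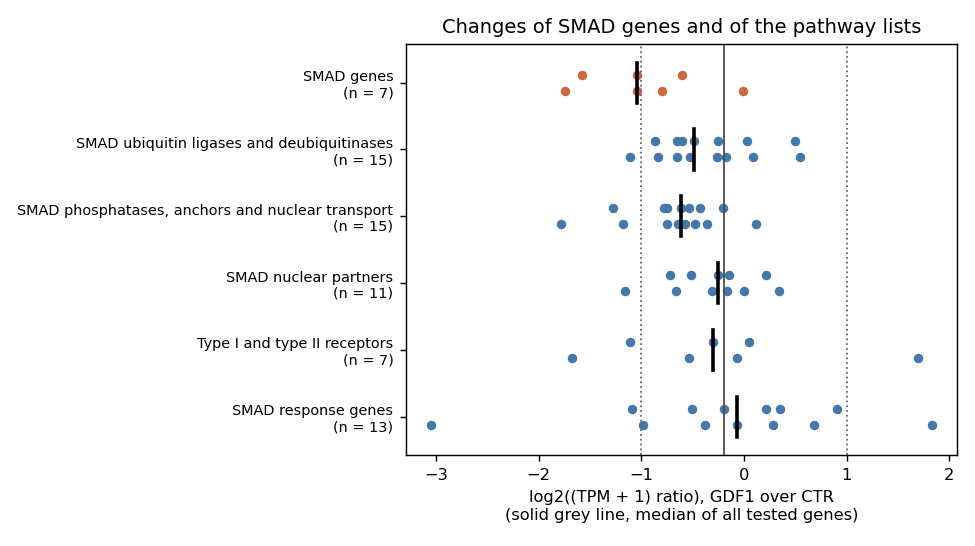
log2 change of each gene that reached 1 TPM in either library, for the SMAD genes (orange) and the 5 pathway lists (blue), with list medians (black), the 2-fold limits (dotted) and the median of all genes, -0.20 (solid grey). The SMAD median is -1.04 and the list medians lie between -0.61 and -0.07.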

How the data were processed

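The data were 1 RNA-seq library of PLC-8024-CTR cells and 1 of PLC-8024-GDF1 cells. Per the methods and the submitters' processing notes, poly(A) RNA was sequenced in pairs, reads were filtered with Trimmomatic 0.36, aligned to hg19 with HISAT2 2.1.0 and quantified with StringTie 1.3.3b, and the authors deposited TPM for 58174 genes, in 1 column per library whose header calls it a mean; what was averaged is not given. Gene identifiers in the files are from Ensembl, although a RefSeq annotation is named in the methods. Whether strand was used in counting is not given in the sources used here.

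The members and lists were chosen with earlier results of these data known. Symbols were matched as printed, and CCN2 through its identifier. The log2 change was computed with a pseudocount of 1 TPM for genes that reached 1 TPM in either library, and fell or rose means past 2-fold on that scale. With 1 library per condition no test was made. Named by rule were the SMAD genes and their overlapping genes, GDF1, CERS1, the 2 highest and 2 lowest changes of each list, SMURF1, SMURF2, SKI, SKIL, TGIF1, PPM1A, ACVR1B, ACVR1C, TGFBR1 and the 2 genes nearest to SMAD2 and SMAD3. The values of 1 response gene that this rule names are not reported here. Others, such as the marker genes and the genes between SMAD2 and SMAD4, were named after their values were seen.

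Spans, longest transcripts and coding sequences came from GENCODE 44 on GRCh37, which held 55726 of the identifiers, and promoter windows from RefSeq on GRCh38.p14. Python 3.11.15, pandas 2.3.3, statsmodels 0.14.6 (lowess, span 0.3) and biopython 1.88 were used, and the calculations were tested on simulated data. TPM keeps no depth, so no counting error is given. Alternatives were other pseudocounts, minimums, scalings and backgrounds, removal of the GC trend and the addition of overlapping genes.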

Additional observations from a re-analysis of the deposited data

How the results depend on the processing

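No paired analysis was possible because there was 1 library per condition. No alternative shows whether a difference would recur in another culture, and the absence of depth limits SMAD1, SMAD2, SMAD4, SMAD7 and SMAD9, each under 1 TPM in at least 1 library, most. A change was judged by its sign and its side of 2-fold, counts by a factor of 1.5. Of 179 values computed under alternatives, 140 stayed within these limits, and 11 of the 179 used settings chosen after seeing the data. Some of the 140 could not have differed. These include all values against protein-coding genes alone, and the values with no filter in lists whose genes were all tested. They also include 2 class ratios in which the median of 2 genes replaced their sum. The tally is therefore no measure of stability.

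SMAD5, SMAD7 and SMAD9 kept sign and side of 2-fold under each alternative run. With rescaled TPM (all PLC-8024-GDF1 values multiplied by 1.15), the SMAD3 change was -0.85, that of SMAD6 turned to 0.19 and the SMAD median was -0.85 (all genes -0.02). With the GC trend removed, SMAD1 was at -0.58, SMAD3 at -0.79 and SMAD6 at 0.044, 2 SMAD genes fell (5.38% of all genes) and the SMAD median was -0.58. SMAD4 passed 2-fold with a pseudocount of 0.1 TPM (-1.34), with the plain ratio (-1.45) and with a pseudocount of 0.5 TPM (-1.03), the last chosen after seeing the data. With the TPM of overlapping genes added, SMAD2 was at -0.51 and SMAD3 at -0.59. These are sums of TPM over genes of unlike length, so they do not show the effect of reads assigned to the wrong gene. With at least 5 TPM, only 2 SMAD genes were left, of which 1 fell, with a median of -0.53. The median was -0.92 with no filter. It was -0.61 over the 3 SMAD genes that reached 1 TPM in both libraries (all such genes -0.18), a choice made after seeing the data. Against protein-coding genes alone, the counts were by construction those given.

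The ratio of the SMAD2 and SMAD3 class to the BMP class, on the log2 scale, turned from -0.06 to 0.88 when class medians replaced sums. In the pathway lists, the ligases and deubiquitinases that fell numbered 4 with a pseudocount of 0.1 TPM, 4 with the plain ratio and 0 with TPM rescaled or the GC trend removed. Phosphatases, anchors and transport factors that fell numbered 6, 6 and, with the GC trend removed, 1. Nuclear partners that fell numbered 0 with TPM rescaled or the GC trend removed. Receptors that fell numbered 1 under each of these, their median turned to 0.16 with the GC trend removed, and it was -1.11 over the 3 receptors with at least 5 TPM. Response genes that rose numbered 2 and those that fell 1 with TPM rescaled or the GC trend removed, and their median turned to 0.13 and 0.063, respectively. With at least 5 TPM, 0 response genes rose and 1 fell.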
